A study of Mus musculus with 12 samples.

Results

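The mouse genes described here make cholesterol, sense it, store it or carry it across membranes. They were taken from a fixed list of 34 gene names, chosen by function, and all 34 had probes on the array. After a filter on dim probes 33 of them could be tested, out of 17038 genes or transcripts in all. The remaining one, Npc1l1, the intestinal cholesterol uptake protein, was well above background on 0 of 12 arrays.

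Total liver RNA of 12 male C57BL/6 mice was labelled with the dye Cy3 and hybridised to 1-colour Agilent arrays, 1 array per mouse. The 4 groups of 3 biological replicates were Het mice (SIRT1+/-) on a high-fat diet, WT mice (SIRT1+/+) on a high-fat diet, Het mice on a low-fat diet and WT mice on a low-fat diet, each fed for 34 weeks. The labels give neither the age of the mice nor the tissues in which the Sirt1 allele was lost. The question of the series is what the protein deacetylase SIRT1 does in metabolic disease induced by diet. A level is given throughout as log2 of the processed signal minus the log2 75th percentile of its array, and each probe is compared only with itself.

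The liver makes cholesterol from acetyl-CoA through the mevalonate pathway and then through squalene and lanosterol. When membranes of the endoplasmic reticulum run low in sterol, Scap escorts the transcription factor SREBP-2, the product of Srebf2, to the Golgi for cleavage, and SREBP-2 then switches on nearly every gene of the pathway; Insig proteins hold Scap back when sterol is plentiful. Excess cholesterol is esterified by the Soat enzymes, loaded onto lipoproteins by Abca1 and Abcg1 or sent into bile by the transporter that Abcg5 and Abcg8 form together, while Scarb1 takes up cholesterol from high-density lipoprotein.

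Because the enzymes are known to share control by SREBP-2 and its partner NF-Y, which binds the CCAAT box, the promoters were read first. RefSeq windows of 300 bases on GRCm38.p6, 250 bases before to 50 after a transcript start, were found for 26 of the 34 members, 33 windows in all. The letters CCAAT, read on both strands, were in 23 of 33 member windows (69.7%) and in 37.4% of the 32851 windows of all genes. They were in 6 of 8 windows of mevalonate pathway genes, in 9 of 11 windows of genes from squalene to cholesterol, in 3 of 7 of sterol sensing genes and in 3 of 5 of uptake and export genes. TCACNCCAC, a form of the sterol regulatory element, was in 1 member window, that of Hmgcs1, and in 1.24% of all windows. The E-box CACGTG was in 7 of 33 member windows (21.2%) and in 7.15% of all. Windows that overlap can count the same site more than once. Both windows of Scap hold the same E-box, and the windows of Abcg5 and Abcg8 share a CCAAT. The strict DR4 element, a direct repeat of the kind that liver X receptors bind, was in 0 member windows and in 0.0152% of all. Each motif was searched on its own, so letters shared by overlapping motifs counted for both, and a match describes the letters only.

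The windows below, 5′ to 3′ on the strand of the gene, are a selection of members that differed between diets (the enzymes Mvk, Mvd and Lss, the sensors Insig1 and Scap, and Abcg8), with Hmgcs1 for its sterol regulatory element. Capitals mark CCAAT on either strand (ATTGG on the other) and, in Hmgcs1, also the sterol regulatory element.
Mvk, GRCm38.p6 chr5:114444019-114444318, plus strand: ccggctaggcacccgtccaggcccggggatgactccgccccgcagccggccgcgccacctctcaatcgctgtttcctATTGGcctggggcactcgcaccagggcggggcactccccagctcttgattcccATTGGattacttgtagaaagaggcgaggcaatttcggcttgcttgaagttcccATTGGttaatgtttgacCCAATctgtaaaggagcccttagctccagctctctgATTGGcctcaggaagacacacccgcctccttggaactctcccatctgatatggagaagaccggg
Mvd, GRCm38.p6 chr8:122443373-122443672, minus strand: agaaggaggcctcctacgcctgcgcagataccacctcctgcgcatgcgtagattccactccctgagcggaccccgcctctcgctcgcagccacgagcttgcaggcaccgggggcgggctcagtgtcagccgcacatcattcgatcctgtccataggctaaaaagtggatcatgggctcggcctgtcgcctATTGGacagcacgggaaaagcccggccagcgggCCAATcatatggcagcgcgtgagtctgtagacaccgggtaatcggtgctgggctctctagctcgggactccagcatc
Lss, GRCm38.p6 chr10:76531355-76531654, plus strand: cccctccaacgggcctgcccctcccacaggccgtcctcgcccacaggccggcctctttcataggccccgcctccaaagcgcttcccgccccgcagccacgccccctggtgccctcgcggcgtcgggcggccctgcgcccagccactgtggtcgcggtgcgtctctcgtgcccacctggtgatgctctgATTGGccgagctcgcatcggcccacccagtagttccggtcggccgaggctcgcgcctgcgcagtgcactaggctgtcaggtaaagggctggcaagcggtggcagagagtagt
Insig1, GRCm38.p6 chr5:28071162-28071461, plus strand: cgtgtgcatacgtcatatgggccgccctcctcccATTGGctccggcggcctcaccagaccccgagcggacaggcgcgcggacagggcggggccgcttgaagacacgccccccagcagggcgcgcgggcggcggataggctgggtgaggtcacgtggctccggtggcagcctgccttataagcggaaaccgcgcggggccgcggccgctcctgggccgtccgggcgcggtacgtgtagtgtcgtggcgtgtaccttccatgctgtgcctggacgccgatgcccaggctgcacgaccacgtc
Hmgcs1, GRCm38.p6 chr13:119690101-119690400, plus strand: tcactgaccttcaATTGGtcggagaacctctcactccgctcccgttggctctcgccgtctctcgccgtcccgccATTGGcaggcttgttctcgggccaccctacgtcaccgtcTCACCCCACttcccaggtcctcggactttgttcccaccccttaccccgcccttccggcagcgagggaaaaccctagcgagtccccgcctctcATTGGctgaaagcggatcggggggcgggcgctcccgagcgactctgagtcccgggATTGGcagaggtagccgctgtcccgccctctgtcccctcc
Scap, GRCm38.p6 chr9:110333038-110333337, plus strand: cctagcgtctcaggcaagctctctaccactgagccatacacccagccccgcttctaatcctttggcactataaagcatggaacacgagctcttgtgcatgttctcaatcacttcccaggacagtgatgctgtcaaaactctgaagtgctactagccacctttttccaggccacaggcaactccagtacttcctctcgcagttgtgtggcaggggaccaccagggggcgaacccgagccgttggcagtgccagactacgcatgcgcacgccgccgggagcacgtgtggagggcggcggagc
Abcg8, GRCm38.p6 chr17:84682871-84683170, plus strand: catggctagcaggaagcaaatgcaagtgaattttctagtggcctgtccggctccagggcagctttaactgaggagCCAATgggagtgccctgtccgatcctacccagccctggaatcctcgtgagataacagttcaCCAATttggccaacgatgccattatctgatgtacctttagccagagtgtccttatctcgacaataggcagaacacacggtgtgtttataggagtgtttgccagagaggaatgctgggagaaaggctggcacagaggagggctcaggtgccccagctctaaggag
In the order shown, CCAAT occurred 5 times for Mvk, 2 times for Mvd, 1 time for Lss, 1 time for Insig1, 4 times for Hmgcs1, 0 times for Scap and 2 times for Abcg8. Of the called members' windows not shown, 1 of Pmvk and that of Soat1 held it 1 time each. The other of Pmvk, that of Abca1, the second of Scap and the second of Abcg8 held it 0 times. Soat1 was called through a probe that the array design places on another chromosome. The Abcg8 window overlaps that of Abcg5, which is transcribed the other way. Fdft1, Fdps, Soat2, Sqle, Scarb1, Abcg1, Npc1 and Stard4 have no window in the RefSeq table used. For 3 of these that differed between diets, the 60-base probes that measured them are shown instead, since each spans more of mm7 than its own length and so skips genomic sequence.
Fdft1 probe, mm7 chr14:58010811-58015051, minus strand: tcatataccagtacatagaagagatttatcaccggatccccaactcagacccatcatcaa
Fdps probe, mm7 chr3:89208691-89208831, minus strand: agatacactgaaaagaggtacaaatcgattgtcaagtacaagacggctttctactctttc
Soat2 probe, mm7 chr15:102147252-102148169, plus strand: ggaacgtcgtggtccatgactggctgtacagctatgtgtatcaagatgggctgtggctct

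The share of spots well above background was 58.0% to 71.6% per array, with a 75th percentile of 975.1 to 2006.4 intensity units. Each of the 33 probes used was well above background on all 12 arrays. Sirt1, the check of the genotype labels, was at -0.72, -0.67 and -0.73 in Het and -0.37, -0.26 and -0.17 in WT livers on the high-fat diet. Livers on the low-fat diet had it at -0.37, -0.62 and -0.23 in Het and 0.23, -0.05 and -0.09 in WT livers. Het arrays lay below WT arrays on both diets, with a difference of -0.44 (SE 0.13, limma adjusted p = 0.448) on the high-fat diet and -0.43 (SE 0.13, adjusted p = 0.9999) on the low-fat diet. The 95% intervals, from -0.73 to -0.15 and from -0.73 to -0.14, lay below 0, but neither difference passed after adjustment over all genes. The scan day of the 6 high-fat arrays differed from that of the 6 low-fat arrays, and so did their slides, so diet and scan day cannot be told apart in any result below. Het and WT arrays shared 2 of the 4 slides.

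Over both genotypes, livers on the high-fat diet had higher RNA levels of 9 members than livers on the low-fat diet and lower levels of 5. The 9 were the enzymes Mvk, Pmvk, Mvd, Fdps, Fdft1, Sqle and Lss, the sterol sensor Insig1, and Soat2, which esterifies cholesterol in hepatocytes. The 5 were Scap, a probe annotated to Soat1, Abca1, Abcg8 and Scarb1. The Soat1 probe stays in the counts by the rule of the brightest probe. The array design places it on another chromosome than RefSeq does, and another Soat1 probe was called higher. The 14 calls are 14 of 33 members, beside 30.1% of all genes called in this comparison, 13.4% higher and 16.7% lower. The split over all genes depends on scaling, with 44.5% of the calls higher here and 60.4% with arrays scaled to their median, where 10 members were higher and 4 lower. The median difference of the members was 0.19, against -0.03 over all genes. A call means an adjusted p under 0.05 in limma's moderated test, with Benjamini-Hochberg adjustment over all genes tested.

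**Figure D1:**
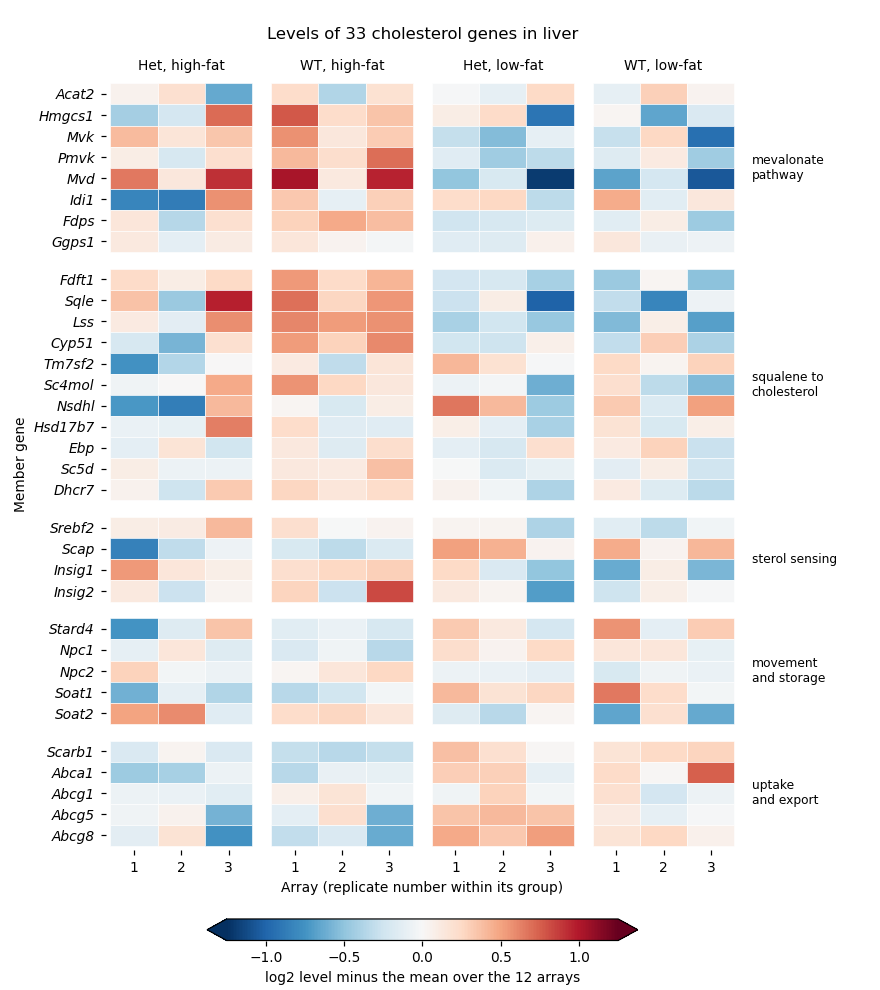
Heat map of the log2 level of each of 33 members on each of 12 arrays, minus the mean of that member over the arrays; columns are grouped by genotype and diet, rows by role. Mvd is above its mean on all 6 high-fat arrays and below it on all 6 low-fat arrays, while Scap runs the other way on every array.

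Calls fell on only some of the early enzymes of the pathway, and whether the differences of these enzymes differ was not tested. Of the 8 genes from acetyl-CoA to geranylgeranyl diphosphate, 4 rose, 0 fell and 4 did not pass, with a median difference of 0.43. Mvd, which decarboxylates mevalonate diphosphate to isopentenyl diphosphate, had the largest difference of any member. It stood at 1.91, 1.39 and 2.17 in Het and 2.28, 1.37 and 2.22 in WT livers on the high-fat diet, against 0.76, 1.05 and 0.06 in Het and 0.58, 1.03 and 0.19 in WT livers on the low-fat diet. All 6 high-fat arrays lay above all 6 low-fat arrays, a separation found in 2 members, Mvd and Fdft1, and in 6.02% of all genes. The difference was 1.28 (SE 0.24, adjusted p = 0.00363), a fold of 2.42.

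Mvk, which phosphorylates mevalonate, had 1.11, 0.87 and 1.06 in Het and 1.29, 0.86 and 1.03 in WT livers on the high-fat diet, against 0.41, 0.17 and 0.60 in Het and 0.42, 0.97 and -0.23 in WT livers on the low-fat diet. Only WT low-fat replicate 2 reached into the range of the high-fat arrays. The difference was 0.64 (SE 0.18, adjusted p = 0.0228), and it no longer passed when WT high-fat replicate 1, Het high-fat replicate 1 or Het low-fat replicate 2 was left out, or without the filter on dim probes. Pmvk, the next kinase, was at 5.18, 4.88 and 5.30 in Het and 5.49, 5.31 and 5.78 in WT livers on the high-fat diet, against 4.94, 4.64 and 4.76 in Het and 4.93, 5.20 and 4.64 in WT livers on the low-fat diet. Its difference was 0.47 (SE 0.13, adjusted p = 0.0196), and the groups overlapped through Het high-fat replicate 2 and WT low-fat replicate 2. Fdps, which builds farnesyl diphosphate, had 6.36, 5.85 and 6.40 in Het and 6.49, 6.67 and 6.59 in WT livers on the high-fat diet, against 5.95, 5.99 and 6.03 in Het and 6.06, 6.29 and 5.75 in WT livers on the low-fat diet. With 1 low Het array on the high-fat diet, the difference of 0.38 (SE 0.12) passed narrowly at an adjusted p of 0.0381, and it was kept in 2 of the 12 fits that left out 1 array each.

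The other 4 genes of this stretch did not pass. Hmgcs1, which makes hydroxymethylglutaryl-CoA, ranged from 5.64 to 6.85 over high-fat arrays and from 5.15 to 6.30 over low-fat arrays, with a difference of 0.47 (SE 0.25, adjusted p = 0.177). Idi1, the isomerase after Mvd, ran from 4.12 to 5.57 on the high-fat diet and from 4.67 to 5.46 on the low-fat diet. Its difference was -0.21 (SE 0.25, adjusted p = 0.554), and its other kept probe gave the opposite sign, without a call. For Acat2, the cytosolic thiolase, the difference was -0.11 (SE 0.17), and for Ggps1, which makes geranylgeranyl diphosphate for protein prenylation, 0.09 (SE 0.09). The 95% intervals of all 4 held 0.

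From squalene to cholesterol, 3 of 11 genes rose, 0 fell and 8 did not pass, with a median difference of 0.26. The 3 were the first enzymes of the stretch. Fdft1, squalene synthase, was at 3.68, 3.53 and 3.68 in Het and 3.98, 3.68 and 3.86 in WT livers on the high-fat diet, against 3.21, 3.23 and 3.02 in Het and 2.97, 3.46 and 2.93 in WT livers on the low-fat diet. High-fat and low-fat arrays did not overlap, and the difference was 0.60 (SE 0.11, adjusted p = 0.00350). Sqle, squalene epoxidase, had 3.55, 2.72 and 4.15 in Het and 3.88, 3.45 and 3.74 in WT livers on the high-fat diet, against 2.91, 3.27 and 2.17 in Het and 2.88, 2.35 and 3.12 in WT livers on the low-fat diet. Its Het arrays were widely spread on either diet, and the difference of 0.80 (SE 0.26, adjusted p = 0.0409) was kept in 3 of 12 fits that left out 1 array. Lss, which closes squalene epoxide to lanosterol, stood at 1.73, 1.48 and 2.20 in Het and 2.23, 2.16 and 2.20 in WT livers on the high-fat diet, against 1.22, 1.38 and 1.15 in Het and 1.07, 1.70 and 0.93 in WT livers on the low-fat diet. The WT high-fat arrays lay close together (SD 0.04), and the difference over both genotypes was 0.76 (SE 0.15, adjusted p = 0.00533).

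Beyond lanosterol the members went both ways without a call. Sc4mol, the C-4 sterol methyl oxidase, came nearest from above with 0.46 (SE 0.17, adjusted p = 0.0583), and Tm7sf2, a C-14 sterol reductase, from below with -0.39 (SE 0.15, adjusted p = 0.0648). Cyp51, the lanosterol demethylase, differed by 0.28 (SE 0.16, adjusted p = 0.217) and Nsdhl, which removes the C-4 carbons with Sc4mol, by -0.43 (SE 0.25, adjusted p = 0.222). The remaining enzymes of the stretch, Dhcr7 at 0.26 (SE 0.13), Sc5d at 0.19 (SE 0.09), Hsd17b7 at 0.13 (SE 0.16) and Ebp at 0.00 (SE 0.13), had adjusted p-values of 0.147, 0.133, 0.563 and 0.991.

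**Figure D2:**
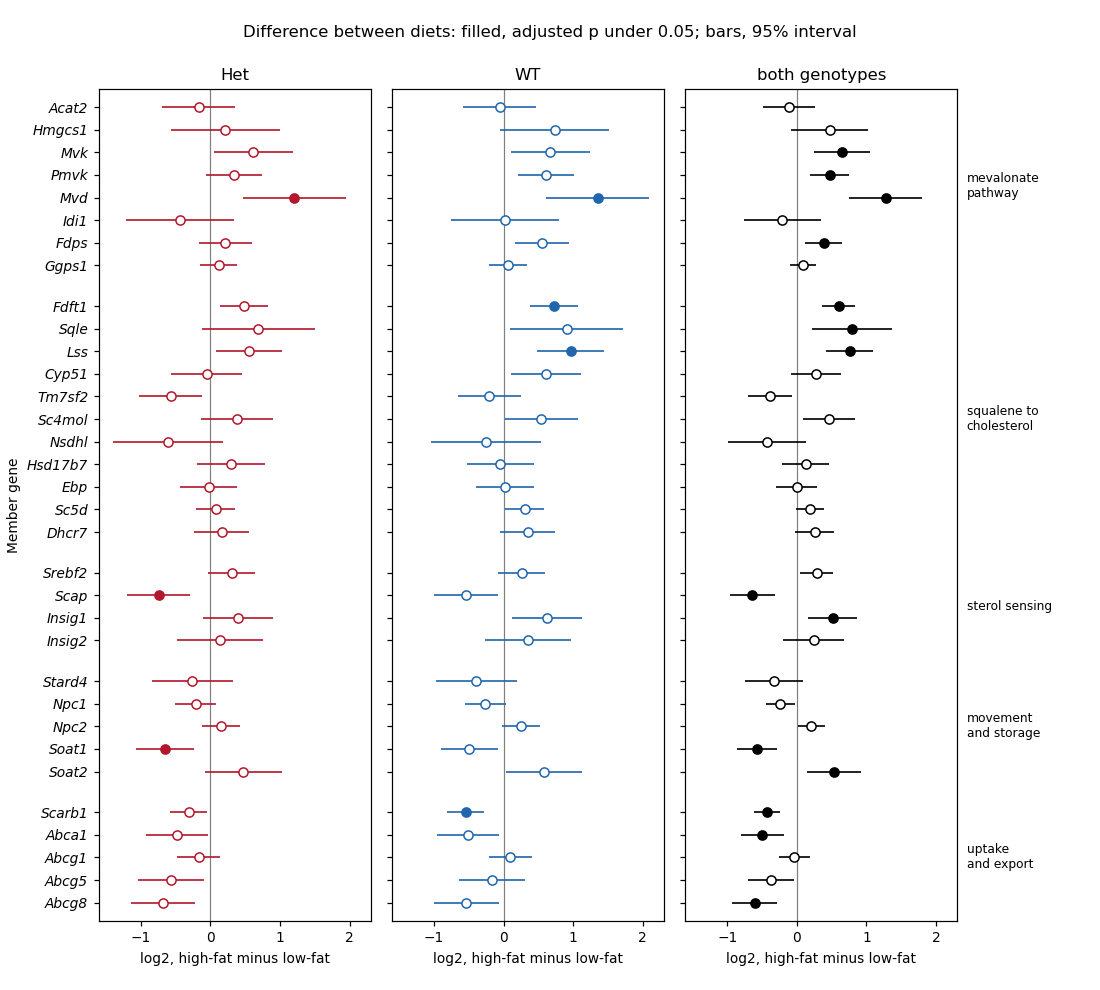
Difference between diets for each member, high-fat minus low-fat on the log2 scale, in Het, in WT and over both genotypes; points are estimates, bars 95% intervals, and filled points have an adjusted p under 0.05. Mvd is filled in all panels at 1.20, 1.35 and 1.28, and Scap, Abca1, Abcg8 and Scarb1 are filled below 0 in the panel over both genotypes.

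The sensors of sterol moved in opposite directions. Scap, the escort of SREBP-2, was at 4.67, 5.20 and 5.46 in Het and 5.33, 5.20 and 5.34 in WT livers on the high-fat diet, against 6.03, 5.97 and 5.57 in Het and 5.99, 5.57 and 5.94 in WT livers on the low-fat diet. It was the only member whose high-fat arrays all lay below its low-fat arrays, as 7.41% of all genes did, and the difference was -0.64 (SE 0.15, adjusted p = 0.00913). Insig1, which retains Scap and is itself an SREBP target, had 2.41, 2.01 and 1.95 in Het and 2.08, 2.12 and 2.16 in WT livers on the high-fat diet, against 2.12, 1.68 and 1.38 in Het and 1.24, 1.96 and 1.30 in WT livers on the low-fat diet. Its difference of 0.51 (SE 0.16, adjusted p = 0.0354) was kept in 3 of 12 fits that left out 1 array. Srebf2 differed by 0.28 (SE 0.11, adjusted p = 0.0703) and Insig2, the second retention protein, by 0.24 (SE 0.20, adjusted p = 0.375). For Srebf2 the high-fat arrays ran from 3.22 to 3.63 and the low-fat arrays from 2.84 to 3.27.

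Among genes that move or store cholesterol inside the cell, 1 of 5 rose and the probe annotated to Soat1 fell. Soat2 stood at 1.71, 1.80 and 1.06 in Het and 1.44, 1.48 and 1.37 in WT livers on the high-fat diet, against 1.05, 0.87 and 1.24 in Het and 0.56, 1.42 and 0.57 in WT livers on the low-fat diet. The ranges overlapped through Het high-fat replicate 3 and WT low-fat replicate 2, and the difference of 0.53 (SE 0.18, adjusted p = 0.0439) was kept in 3 of 12 fits that left out 1 array. The late endosomal exporters Npc1 and Npc2 differed by -0.24 (SE 0.10, adjusted p = 0.0830) and 0.20 (SE 0.09, adjusted p = 0.0992). Stard4, which carries sterol through the cytosol, differed by -0.33 (SE 0.19, adjusted p = 0.206), with 2.72 on the lowest and 3.83 on the highest high-fat array and 3.25 and 4.03 on the low-fat ones.

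Soat1, which esterifies cholesterol in macrophages and many other cells, had 2 readings that oppose each other. Its brightest probe was at -0.71, -0.22 and -0.48 in Het and -0.46, -0.34 and -0.14 in WT livers on the high-fat diet, against 0.30, 0.08 and 0.17 in Het and 0.55, 0.12 and -0.15 in WT livers on the low-fat diet, a difference of -0.57 (SE 0.13, adjusted p = 0.00996). The array design places that probe on mm7 chromosome 7, at chr7:64592747-64592806, whereas RefSeq has Soat1 on chromosome 1. The brightest of the 3 probes on chromosome 1, at chr1:156392448-156392507 on mm7, was at 0.10, -0.55 and -0.73 in Het and -0.23, -0.25 and -0.47 in WT livers on the high-fat diet, against -1.47, -0.72 and -0.81 in Het and -0.98, -1.09 and -1.54 in WT livers on the low-fat diet. That probe gave 0.75 (SE 0.18, adjusted p = 0.0115), and the other chromosome 1 probes 0.44 and -0.11 without a call. No direction is therefore given for the gene.

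Of the 5 tested genes of uptake and export, 3 fell on the high-fat diet and 0 rose. The estimates of all 5 were below 0, but that of Abcg1 was above 0 with arrays scaled to the median (0.02), with normexp background (0.05), with the trend in GC content and brightness removed (0.19), without WT low-fat replicate 1 (0.02) and without Het low-fat replicate 2 (0.02). Scarb1, the receptor for high-density lipoprotein, was at 3.64, 3.85 and 3.64 in Het and 3.53, 3.48 and 3.53 in WT livers on the high-fat diet, against 4.20, 4.02 and 3.84 in Het and 3.998, 4.07 and 4.10 in WT livers on the low-fat diet. The difference was -0.43 (SE 0.08, adjusted p = 0.00497), with a tight spread in WT and an overlap only between the highest Het high-fat and the lowest Het low-fat array. Abca1, the exporter that lipidates apolipoprotein A-I, had 3.23, 3.27 and 3.61 in Het and 3.34, 3.60 and 3.58 in WT livers on the high-fat diet, against 3.99, 3.98 and 3.57 in Het and 3.92, 3.70 and 4.43 in WT livers on the low-fat diet. Its difference was -0.49 (SE 0.14, adjusted p = 0.0242). It no longer passed when WT high-fat replicate 1, Het high-fat replicate 1 or 2 or Het low-fat replicate 1 or 2 was left out, nor with median scaling, with the trend in GC content and brightness removed or without the filter on dim probes, where the adjusted p reached 0.124.

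Abcg8, a subunit of the sterol exporter into bile, stood at 0.08, 0.39 and -0.55 in Het and -0.09, 0.02 and -0.41 in WT livers on the high-fat diet, against 0.69, 0.55 and 0.73 in Het and 0.38, 0.47 and 0.28 in WT livers on the low-fat diet. The difference was -0.61 (SE 0.15, adjusted p = 0.0126), and 1 high-fat array, Het replicate 2, reached the low-fat range. Abcg5, the partner that shares its promoter region, differed by -0.37 (SE 0.15) with an adjusted p of 0.0868. Abcg1, which loads cholesterol onto high-density lipoprotein, ran from 0.22 to 0.54 on the high-fat diet and from 0.14 to 0.65 on the low-fat diet, a difference of -0.04 (SE 0.10, adjusted p = 0.810).

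**Figure D3:**
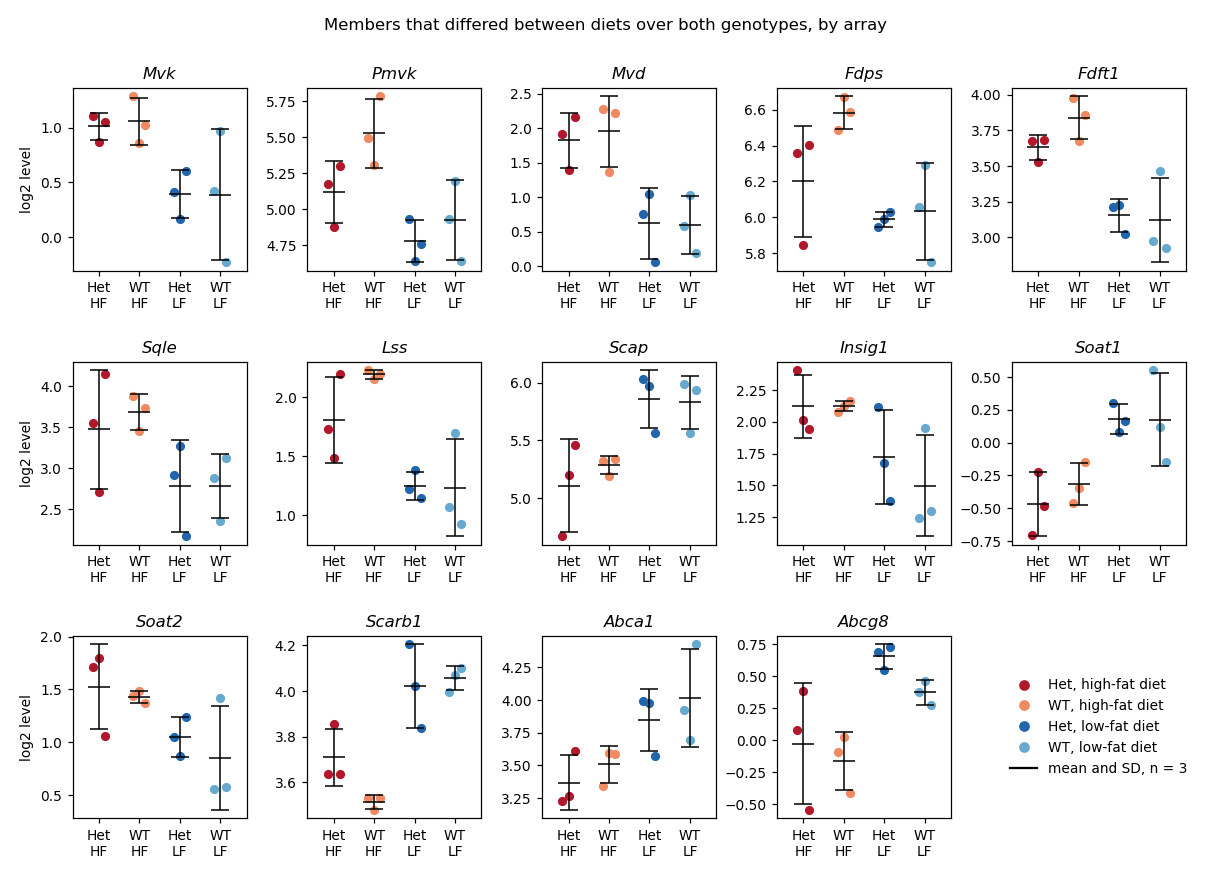
Log2 level of the 14 members called between diets over both genotypes, 1 panel each with its own axis; points are arrays, and lines mark the mean and SD of 3 arrays per group. Mvd, Fdft1 and Scap show no overlap between diets, while in other panels single arrays of one diet reach into the range of the other. The Soat1 panel is the probe that the array design places on chromosome 7.

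Within a single genotype fewer members passed. In Het livers Mvd rose by 1.20 (SE 0.34, adjusted p = 0.0367), Scap fell with a difference of -0.74 (SE 0.21, adjusted p = 0.0361) and the chromosome 7 probe of Soat1 fell with -0.65 (SE 0.19, adjusted p = 0.0399), which makes 3 of 33 members beside 15.8% of all genes. In WT livers Mvd rose by 1.35 (SE 0.34, adjusted p = 0.0433), Fdft1 by 0.72 (SE 0.16, adjusted p = 0.0305) and Lss by 0.96 (SE 0.22, adjusted p = 0.0332), while Scarb1 fell with -0.54 (SE 0.12, adjusted p = 0.0317), 4 of 33 members beside 5.88% of all genes. At an unadjusted p under 0.05 there were 11 members in Het and 17 in WT. The share of all genes at that threshold is not given, here or for the unadjusted counts below. Such counts therefore do not show whether members differ from other genes. The counts moved when 1 array was left out, and so did the calls over all genes. The count in Het was 0 without Het high-fat replicate 1 (5.16% of all genes called) or Het low-fat replicate 1 (6.43%). It was 1 without WT high-fat replicate 1 (12.9%), Het low-fat replicate 2 (9.59%) or Het low-fat replicate 3 (8.91%). WT high-fat replicate 1 does not enter the estimates in Het, only their spread. The count in WT was 1 without WT high-fat replicate 2 (1.44%). It was 0 without WT high-fat replicate 1 (1.49%), WT high-fat replicate 3 (1.09%), WT low-fat replicate 1 (1.22%) or WT low-fat replicate 3 (2.03%). A group with an array left out also gives a less precise estimate. Over both genotypes the count was 8 of 33 without WT high-fat replicate 1 (23.3% of all genes called) or Het high-fat replicate 1 (22.3%). It was 9 without Het low-fat replicate 2 (24.8%). These counts are near the shares of all genes.

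A call in one genotype and not in the other is not a difference between them. The diet effect in Het minus that in WT was called for 0 of 33 members and 0 of 17038 genes (0%), with 0 members at an unadjusted p under 0.05 in limma. The estimates were negative for 26 members and positive for 7, with a median of -0.18 beside 0.03 over all genes. The largest was that of Cyp51, at -0.66 with a 95% interval from -1.37 to 0.05. For Mvd it was -0.15 with an interval from -1.20 to 0.90, and for Scap -0.20 with an interval from -0.85 to 0.44. Insig2, at -0.20, was at -1.05 with slide as a block (adjusted p = 0.9999).

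Between genotypes no member passed the test on either diet. Het minus WT gave 0 calls among 33 members and 0% of all genes, whether mice on the high-fat diet, mice on the low-fat diet or all mice were compared. Without WT high-fat replicate 3 the count over all genes was 47 on the high-fat diet and 7 over all mice, still with 0 members. With that array left out, Het and WT arrays on the high-fat diet share no slide. Genotype and slide cannot be told apart in those counts on that diet. At an unadjusted p under 0.05 limma gave 2 members on the high-fat diet and 0 in the others. On the high-fat diet the estimates were below 0 for 26 members and above 0 for 6, with Insig1 at 0.00, and the median was -0.15 beside 0.03 over all genes, of which 45.1% were below 0. The estimates of 8 of 8 genes of the mevalonate pathway and of 10 of 11 from squalene to cholesterol were below 0, with medians of -0.26 and -0.21, but the signs of several turned with the setting. Ebp was above 0 with normexp background (0.02), and Ggps1 (0.06) and Sc4mol (0.0032) with slide as a block. Mvk, Mvd and Ggps1 were above 0 without WT high-fat replicate 1 (0.07, 0.03 and 0.02) and without Het high-fat replicate 2 (0.02, 0.08 and 0.05), as was Sqle without the second of these (0.16). Without Het high-fat replicate 3, Acat2 was above 0 (0.11) and Hsd17b7 below it (-0.07). On the low-fat diet 14 members were below 0 and 19 above, with a median of 0.01. This split rests on single arrays, with 10 members above 0 without Het low-fat replicate 1, 12 without Het low-fat replicate 2, 23 without Het low-fat replicate 3, 14 without WT low-fat replicate 3 and 25 with slide as a block. Members are not replicates and share arrays, so these counts carry no test.

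**Figure D4:**
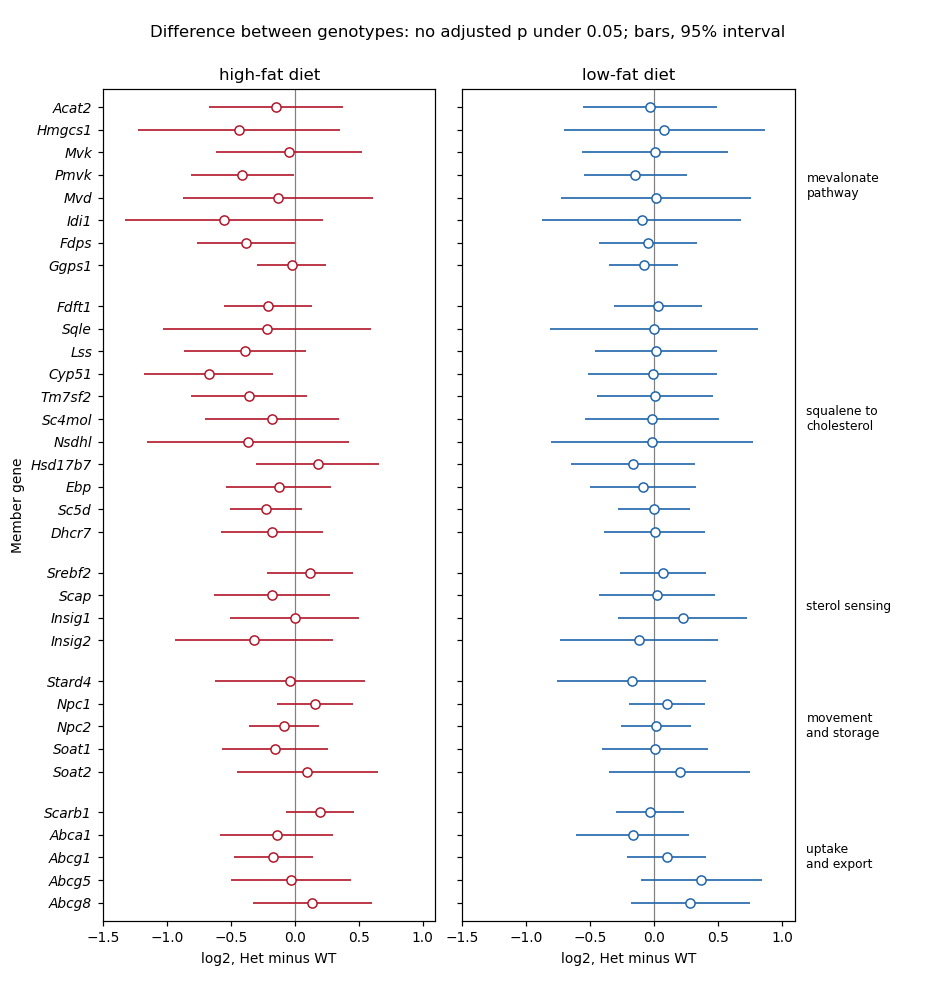
Difference between genotypes for each member, Het minus WT on the log2 scale, with a panel for each diet; points are estimates and bars 95% intervals. On the high-fat diet most points lie left of 0, from -0.67 for Cyp51 to 0.20 for Scarb1, while on the low-fat diet the synthesis genes lie close to 0.

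Cyp51 and Pmvk were the 2 members at an unadjusted p under 0.05. On the high-fat diet Cyp51 was at 2.01, 1.64 and 2.43 in Het livers, against 2.76, 2.52 and 2.82 in WT livers. The difference was -0.67 (SE 0.23, adjusted p = 0.463). The 2 other kept probes of Cyp51 gave -0.43 (SE 0.24) and -0.40 (SE 0.33), and on both of them Het and WT arrays overlapped. Pmvk, whose values on this diet are given above, differed by -0.41 (SE 0.18, adjusted p = 0.568) and Fdps by -0.38 (SE 0.17, adjusted p = 0.580). Het arrays lay wholly below WT arrays on the high-fat diet for 5 members, Pmvk, Fdps, Cyp51, Sc5d and Abcg1, beside 5.79% of all genes, and wholly above for 1, Scarb1, beside 9.14%. On the low-fat diet the Het arrays lay wholly above the WT arrays for 2 members, the bile sterol exporter genes Abcg5 and Abcg8, beside 1.95% of all genes, and wholly below for 0, beside 2.40%. Abcg5 was then at 5.47, 5.52 and 5.47 in Het livers, against 5.23, 5.004 and 5.10 in WT livers, with a difference of 0.37 (SE 0.21) and a 95% interval from -0.10 to 0.84.

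The intervals set how large an unseen difference could be. Over members they reached from -1.33, the lower bound of Idi1, to 0.66, the upper bound of Hsd17b7, on the high-fat diet. For Mvd the interval of Het minus WT ran from -0.87 to 0.61 on the high-fat diet, and for Ggps1, measured most closely among the early enzymes, from -0.29 to 0.25. With slide as a block, which compares Het with WT arrays of the same slide, 28 of 33 members kept their sign on the high-fat diet and 23 were below 0, with 0 calls. The 3 members then at an unadjusted p under 0.05 were Insig2 at -0.87, against -0.32 without the block, Cyp51 at -0.79 and Pmvk at -0.66, with a lowest adjusted p of 0.918. On the low-fat diet 23 of 33 kept their sign. Each of these within-slide values rests on a slide that holds 1 array of one genotype.

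Arrays of 1 group differed in a way that several members shared. The distance of an array from its group's mean over the members, as a root mean square, was largest for Het high-fat replicate 3 at 0.39 and smallest for WT high-fat replicate 1 at 0.14, while over all genes it ran from 0.24 to 0.33. Het high-fat replicate 3 was near the top over all genes too, at 0.33, and WT high-fat replicate 1 was at 0.25. On Het high-fat replicate 3 Hmgcs1 was at 6.77, against 5.64 and 5.84 on the other arrays of its group. Idi1 was at 5.57 there, against 4.17 and 4.12, and Nsdhl at 2.97, against 1.84 and 1.70. The same array had the lowest Abcg5, Abcg8, Soat2 and Acat2 of its group. Without it, 9 members instead of 2 had an unadjusted p under 0.05 in limma for genotype on the high-fat diet, still with 0 calls. Without Het high-fat replicate 2 the count was 0. Replicate 3 was singled out by its distance, and the share of all genes at that threshold is not given. The 9 is therefore not evidence of a genotype effect.

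For 19 members more than 1 probe passed the filter, which checks a reading within the same arrays. The 8 called members among them had 11 other probes, of which 9 gave the same sign, 3 were called in the same direction and 1, for Soat1, was called in the opposite one. Another probe of Mvk, of Pmvk and of Lss was called higher. Among members without a call on the brightest probe, 3 had a call of the same sign on a dimmer one. For Hmgcs1 that probe was at 0.28, -0.31 and 0.12 in Het and 1.04, 0.38 and 0.80 in WT livers on the high-fat diet, against -0.14, 0.31 and -0.72 in Het and -0.52, -0.31 and -0.42 in WT livers on the low-fat diet. It gave a difference of 0.68 (SE 0.18, adjusted p = 0.0185), while a dimmer probe of Srebf2 gave 0.40 (SE 0.10, adjusted p = 0.0125) and one of Stard4 -0.45 (SE 0.15, adjusted p = 0.0470). The probes of Nsdhl ranged from -0.43 to 1.03 and those of Cyp51 from -0.14 to 0.42, none with a call. The used probes of Hmgcs1 and Idi1, like that of Soat1, are placed by the array design on another mm7 chromosome than the one RefSeq gives, an unplaced sequence for Hmgcs1 and chromosome 2 in place of 13 for Idi1.

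**Figure D5:**
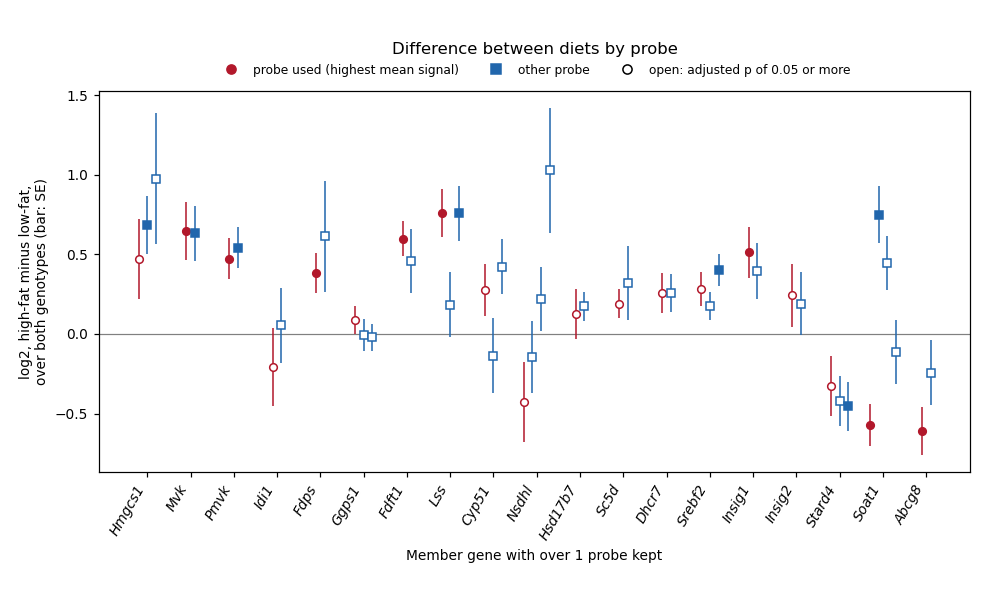
Difference between diets over both genotypes for every kept probe of the 19 members with more than 1, from the brightest at left within each gene to the dimmest; bars are SE, red circles the probes used, blue squares the others, and open symbols have an adjusted p of 0.05 or more. Mvk, Pmvk and Lss have called probes close in value, whereas those of Soat1 lie at -0.57 and 0.75.

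The counts of 3 related lists stand beside 13.4% of all genes called higher and 16.7% called lower over both genotypes. Of 15 other genes known to answer to SREBP, 7 rose and 0 fell, with a median difference of 0.54, against -0.03 over all genes. The 4 of lowest p were Tmem97, a sterol-regulated membrane protein, at 0.70 (SE 0.12, adjusted p = 0.00299), Fads1, a fatty acid desaturase, at 0.54 (SE 0.12, adjusted p = 0.00728), Acly, which supplies cytosolic acetyl-CoA, at 0.93 (SE 0.21, adjusted p = 0.00812) and Fads2, the other desaturase, at 0.61 (SE 0.15, adjusted p = 0.0126). Of 8 genes of SREBP processing and of the sterol-triggered degradation of pathway enzymes, 0 rose and 1 fell, the ubiquitin ligase Rnf139, at -0.46 (SE 0.11, adjusted p = 0.0126). Of 22 genes of liver X receptor control, lipoproteins and sterol handling, 3 rose (13.6%, near the share of all genes) and 0 fell. They were Lpl, lipoprotein lipase, at 1.08 (SE 0.15, adjusted p = 0.000972), Ch25h, cholesterol 25-hydroxylase, at 1.32 (SE 0.23, adjusted p = 0.00246), and Arl4c, a small GTPase induced by liver X receptors, at 0.81 (SE 0.10, adjusted p = 0.000657). Genotype called 0 genes of the 3 lists on the high-fat diet.

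Whole liver RNA mixes cell types, and fewer cells of a type and less RNA per cell cannot be told apart in it. Markers of other cells moved with diet beside the members. Their counts over both genotypes stand beside 13.4% of all genes called higher and 16.7% called lower. Summed over a list as linear signal relative to the 75th percentile of an array, 9 stellate cell and fibroblast markers ran from 75.01 to 104.9 in Het and from 72.6 to 77.5 in WT livers on the high-fat diet, against 51.1 to 70.7 in Het and 57.5 to 59.7 in WT livers on the low-fat diet, and 7 of the 9 rose. Of 12 macrophage markers 4 rose, Gpnmb by 3.64, Mmp12 by 3.27, Trem2 by 2.01 and Cd68 by 0.61, and Cd163 fell with -1.94, while the sum ran from 108.1 to 179.5 in Het and 140.2 to 160.6 in WT livers on the high-fat diet, against 96.1 to 180.6 in Het and 129.7 to 159.5 in WT livers on the low-fat diet. The 5 tested of 6 cholangiocyte markers summed to 13.0 to 68.6 in Het and 19.8 to 24.1 in WT livers on the high-fat diet, against 7.09 to 9.51 in Het and 6.65 to 9.22 in WT livers on the low-fat diet, and 3 of them rose.

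Of 10 hepatocyte markers, all measured, 0 rose and 2 fell, Cps1 with -1.03 and Ttr with -0.68, and the sum ran from 1323 to 1879 in Het and 1301 to 1667 in WT livers on the high-fat diet, against 1387 to 1793 in Het and 1515 to 1993 in WT livers on the low-fat diet. The 5 endothelial markers summed to 21.4 to 28.4 in Het and 23.9 to 27.1 in WT livers on the high-fat diet, against 28.8 to 30.2 in Het and 31.1 to 34.1 in WT livers on the low-fat diet, with 2 lower and 0 higher. Of 5 adipocyte markers only Cfd was tested and it rose by 1.67, while Lep was well above background on 0 arrays. Of 5 tested T and B cell markers, 1 fell, Cd3e with -1.02, again near the share of all genes called lower. The part of these cell types in the differences of the members was not tested.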

How the data were processed

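The deposited scanner tables give 1 intensity per spot, from which background and a spatial trend were removed, per the file headers. The submitters' processing notes name Agilent Feature Extraction 9.5. The authors' table of the whole series held the same intensity values in all 45018 spots of every array, linear and not centred, with medians from 78.3 to 163.4. Here log2 of the processed intensity minus the log2 75th percentile of non-control spots was used. Control spots and 1344 outlier-flagged spots were left out and saturated spots kept. A probe was kept if every array of 1 or more groups had it well above background and each group had values on 2 or more arrays, as held for 25291 of 41174. Probes were named through RefSeq accessions or symbols, and the brightest probe stood for a gene. Probe positions are the design's own, on mm7.

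Means of the 4 groups were fitted in limma (3.58.1, R 4.3.3) with 8 residual and 2.8 prior degrees of freedom. Tests were two-sided, with p-values adjusted by Benjamini-Hochberg over 17038 genes and a threshold of 0.05. Intervals are 95% intervals of that fit. The test was checked on simulated data with known changes. Alternatives covered normalization, background, filters, the set of probes tested, the probe of Soat1, blocks and arrays left out. Values are given per array for members called in any comparison, and from each related list for the called genes, or the 4 of lowest p where more were called. From these lists 1 gene is not reported here. The members and lists were chosen with earlier results of these data known. The number of arrays limits the precision.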

Additional observations from a re-analysis of the deposited data

How the results depend on the processing

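Counts of called members (main values 3 for diet in Het, 4 for diet in WT and 14 for diet over both genotypes) moved with the settings as follows. Quantile normalization gave 5 in Het, beside 17.8% of all genes. Without the filter on dim probes, which raised the tests to 27668, they were 0 in Het, 0 in WT and 8 over both. The shares of all genes were then 4.3%, 0.564% and 13.7%. Fits of only the groups compared gave 0 in Het and 0 in WT, beside 9.15% and 3.52%. Leaving out 1 array at a time gave 0 to 4 in Het, 0 to 5 in WT and 8 to 14 over both. All genes then ran from 5.16% to 16.9%, from 1.09% to 6.61% and from 22.2% to 32.3%. Slide as a random block, with an estimated correlation of -0.18, gave 11, 12 and 23, beside 31.8%, 21.1% and 51.1%. A replicate block gave 0 in Het, 0 in WT and 11 over both, beside 11.2%, 3.2% and 25.8% of all genes. But the replicate numbers do not pair the arrays. Of 18 pairs of equal number 3 correlated above 0.1, and 3 of 12 arrays correlated best with their own number. Of 469 refits of the 21 calls, 340 kept direction and call, 127 kept the direction only and 2 reversed. The 2 are the diet effect of Soat1 on its brightest chromosome 1 probe, a choice made after seeing the data, at 0.61 in Het and 0.75 over both genotypes. The exchange of that probe left the levels of every other gene unchanged but counts among the refits of each call. Leaving out an array of the other genotype did not change the estimate of a call within a single genotype. The 340 of 469 is therefore not a rate of stability. Mvd, Fdft1, Lss, Scap, Abcg8 and Scarb1 stayed called over both genotypes in all 22 settings tried for each. Each of these settings used the brightest probe of those genes. The other kept probe of Abcg8 gave -0.24 (SE 0.20, limma adjusted p = 0.393), and that of Fdft1 had the same sign without a call. The genotype and interaction counts of members were 0 under every alternative run. Over all genes these counts were 47 for genotype on the high-fat diet, 7 for genotype over both diets and 3 for the interaction without WT high-fat replicate 3, and 0 to 2 in every other setting run. Without that array, genotype and slide cannot be told apart on the high-fat diet.

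Over all genes, calls for diet in Het numbered 2699, and 1191 without the filter, 1559 with only those groups, 5424 with the random block, and 879, 1096, 1634 and 1518 without Het high-fat replicate 1 and Het low-fat replicates 1, 2 and 3. For diet in WT they numbered 1002, and 156, 599 and 3594 under the same settings, 546 with the replicate block, 254, 245 and 186 without WT high-fat replicates 1, 2 and 3, 208 without replicate 1 and 346 without replicate 3 of WT low-fat, and 659 without Het low-fat replicate 2. Over both genotypes 5135 became 8709 with the random block. Scaling to the median moved the median difference of all genes to 0.07 for diet in WT, against -0.05 in the main setting, to -0.09 for genotype on the high-fat diet, against 0.03, and to -0.09 for the interaction, against 0.03, and made 74.6% of the WT diet calls higher, against 46.3%. Among the members only Npc1l1 was left out by the filter, since its probe was not well above background on any array. Among the cell type markers Cldn4, Adipoq, Plin1, Lep, Retn and Cd79a were left out. Whether depth or absence of the RNA lies behind this was not tested.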
